A study of Homo sapiens with 60 samples.

Results

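Cell division is run by a set of genes whose RNA rises together in the G2 and M phases, and 45 of them were followed here across 60 RNA-seq libraries of 4 EGFR-mutant lung adenocarcinoma cell lines treated with osimertinib, an inhibitor of the mutant EGF receptor. The 45 genes are a fixed list of mitotic regulators, motors and chromosome proteins, and all 45 were among the 19712 genes measured. The lines were PC9, HCC827, H1975 (labelled NCI-H1975 in the treatment notes) and HCC2935, and each line had 5 arms of 3 biological replicates, 20 groups in all. The DMSO and acute arms were parental cells kept without drug for 21 days, then given DMSO or 500 nM osimertinib for 24 h. The DTP arm (drug-tolerant persisters) was cells that had been under 500 nM osimertinib for 21 days. In the washout arms, such cells were put back in drug-free medium for 24 h (short washout) or for a longer time set for each line, with the labels giving resumed exponential growth as the end point (long washout). The long washout lasted 7 days in PC9, 4 days in HCC827, 3 days in H1975 and 10 days in HCC2935, so that line and washout time cannot be told apart in that arm. The labels name no EGFR allele and no clone, and the persisters were what remained of a treated culture.

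A cell enters mitosis when CDK1, bound to a B-type cyclin, is switched on by CDC25 phosphatases and kept active with the help of PLK1 and Aurora A. The spindle then attaches to kinetochores, the spindle checkpoint holds back the anaphase-promoting complex until every chromosome is attached, and CDC20, UBE2C and separase bring about chromosome separation. The RNA of these genes is low in G0 and G1 cells and rises late in the cycle, when MuvB complexes with B-MYB and FOXM1 take the place of the repressive DREAM complex at their promoters. For that reason a bulk RNA level of these genes is often read as a proliferation index. In bulk RNA, fewer cells in G2 or mitosis and less RNA in each such cell cannot be told apart.

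Many of the members' promoters, but not all, held the same short motifs, which the choice of the list did not use. RefSeq promoter windows (GRCh38.p14, from 250 bases before to 50 bases after each start site, 300 bases) were at hand for 39 members, in 49 windows, and windows for AURKA, FOXM1, TTK, BIRC5, UBE2C and TPX2 were not used here. The motif TTTGAA, the core of the cell cycle genes homology region that MuvB complexes bind, was searched on both strands. It was in the windows of 29 of 39 members (74.4%), against 18.2% of the genes of all promoters of this length. Among 52 other mitotic genes with a window the share was 57.7%, and among 30 DNA replication genes it was 3.33%. Of the 45 matches in member windows, 30 lay within 50 bases of the start site. The related core TTCGAA was in 2 of 39 members (5.13%), against 1.82% of the genes of all promoters. Among the 52 other mitotic genes its share was higher, at 13.5%, and among the 30 DNA replication genes it was 3.33%. CCAAT, the letters bound by NF-Y, was in 30 of 39 members (76.9%), against 39.7% of the genes of all promoters. Its share was 75% among the 52 other mitotic genes and 60% among the 30 DNA replication genes. Of the members, 19 held it at least 2 times. Both TTTGAA and CCAAT were present in 22 members. These letter matches are a description of the windows and do not show binding.

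The windows shown next are the 150 bases before the start of 6 members whose values are described in the text, chosen to show windows with and without TTTGAA. Capitals mark matches of both motifs on either strand. A match on the opposite strand reads TTCAAA for the first motif, and for the second motif it reads ATTGG.
CCNB2, chr15:59104996-59105145, plus strand: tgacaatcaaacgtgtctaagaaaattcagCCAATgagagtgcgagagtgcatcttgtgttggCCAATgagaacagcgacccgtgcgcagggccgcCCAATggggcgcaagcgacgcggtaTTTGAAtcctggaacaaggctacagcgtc
PLK1, chr16:23678739-23678888, plus strand: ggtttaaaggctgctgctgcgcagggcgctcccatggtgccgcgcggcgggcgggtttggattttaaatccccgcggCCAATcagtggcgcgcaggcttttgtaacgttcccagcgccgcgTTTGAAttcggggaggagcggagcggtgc
CDC20, chr1:43358831-43358980, plus strand: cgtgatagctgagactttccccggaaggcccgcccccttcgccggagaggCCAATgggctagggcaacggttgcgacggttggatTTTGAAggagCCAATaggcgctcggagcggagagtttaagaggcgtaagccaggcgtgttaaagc
MKI67, chr10:128126424-128126573, minus strand: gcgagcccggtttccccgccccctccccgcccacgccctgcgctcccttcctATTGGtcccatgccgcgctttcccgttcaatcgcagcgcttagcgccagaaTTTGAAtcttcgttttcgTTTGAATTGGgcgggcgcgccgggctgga
CCNB1, chr5:69167000-69167149, plus strand: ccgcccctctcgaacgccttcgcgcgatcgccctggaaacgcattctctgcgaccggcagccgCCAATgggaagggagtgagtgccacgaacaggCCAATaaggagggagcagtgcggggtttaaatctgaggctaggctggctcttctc
BUB1, chr2:110678064-110678213, minus strand: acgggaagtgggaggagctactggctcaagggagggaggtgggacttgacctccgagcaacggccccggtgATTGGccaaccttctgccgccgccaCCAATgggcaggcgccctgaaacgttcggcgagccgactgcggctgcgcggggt
CCNB2 held TTTGAA 29 bases before the start behind a row of 3 CCAAT matches, and PLK1 held it at the same distance. MKI67 held 2 TTTGAA matches, the one nearer the start overlapping an ATTGG. CCNB1 and BUB1 showed CCAAT matches and no TTTGAA in these letters.

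Levels of different members were compared in TPM, a unit of transcript share corrected for transcript length. In PC9 under DMSO the highest means were KPNA2 (305 ± 18.4 TPM, SD, n = 3), CCNB1 (269 ± 14.99) and UBE2C (244 ± 22.4), and the lowest was CENPE (10.2 ± 1.13). HCC827 under DMSO was led by CDC20 (382 ± 60.0 TPM), CCNB1 (347 ± 34.8) and KPNA2 (330 ± 59.4), whose spreads overlapped. In H1975 under DMSO the order began with CCNB1 (371 ± 26.5 TPM), KPNA2 (346 ± 31.3) and UBE2C (327 ± 43.9), again not apart beyond their spread, and CDC25C stood at 17.8 ± 2.80. HCC2935 under DMSO had KPNA2 (292 ± 8.39 TPM) above ANLN (232 ± 26.8) and UBE2C (195 ± 2.11), with CENPE lowest (9.17 ± 0.677). The nuclear import receptor KPNA2 was thus among the 3 highest members in all 4 lines, and the large kinetochore motor CENPE among the lowest.

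The libraries held between 17.7 and 49.1 M estimated counts, with HCC827 (17.7 to 25.1 M) and HCC2935 (18.6 to 25.6 M) shallower than PC9 and H1975. The lowest count of any member in any library was 39.3, for SPC25, so no member was limited by a count near 0. Epithelial keratins were high in every library (KRT8 575 to 6130 TPM, KRT18 535 to 3820 TPM), and the leukocyte marker PTPRC reached at most 3.48 TPM. Of the 3 endothelial markers, VWF reached 1.07 TPM, PECAM1 10.2 TPM and CDH5 21.1 TPM, and their sum was highest in HCC2935 (9.87 to 22 TPM) and lowest in HCC827 (0.255 to 1.02 TPM). CDH1 fell as low as 1.28 TPM and CD68 spanned 9.5 to 175 TPM, so not every marker kept to the labelled cell type. Summed levels of the 5 fibroblast markers were higher in DTPs than in DMSO without overlap in PC9 (6.17 to 8.44 TPM in DMSO, 13.9 to 18.5 in DTPs), HCC827 (5.26 to 9.46 and 23.9 to 56.1) and HCC2935 (26.9 to 33.6 and 43.7 to 80.5). In H1975 those ranges overlapped (24.4 to 60.3 and 42 to 117), and the acute libraries held 94.3 to 207 TPM. The part of these markers in the results was not tested. Replicates of several drug-treated groups stood apart from each other across nearly all members. In H1975 DTPs, replicate 2 was the highest for 45 members and replicate 3 the lowest for 45, and in HCC827 DTPs replicate 1 was the lowest for 44. PC9 acute replicate 2 was the lowest of its group for 45 members, and HCC2935 long washout replicate 1 was the lowest for 45. The libraries labelled long washout in HCC827 and H1975 held every member below all 3 DMSO libraries of the line (25.1% and 29.6% of all genes tested did so), although the labels give resumed growth as the end point of that arm.

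The geometric mean of the 45 genes summarised each library, in TMM-scaled CPM (the share of a library's counts, scaled within the line), and gives the course of the whole set. In PC9 it was 119 ± 6.09 CPM under DMSO (SD, n = 3), 42.4 ± 9.74 under acute osimertinib, 43.1 ± 0.162 in DTPs, 49.1 ± 3.59 after the short and 91.2 ± 17.8 after the long washout. HCC827 went from 148 ± 6.47 CPM under DMSO to 30.9 ± 4.98 under acute osimertinib, 56.5 ± 16.3 in DTPs, 67.7 ± 23.7 after the short and 54.4 ± 4.53 after the long washout. H1975 stood at 147 ± 9.72 CPM in DMSO, 34.4 ± 6.04 under acute osimertinib, 47.8 ± 21.4 in DTPs, 82 ± 15.9 after the short and 39.6 ± 6.49 after the long washout. Acute osimertinib left 35.5% of the DMSO level in PC9, 20.8% in HCC827, 23.4% in H1975 and 33% in HCC2935. HCC2935 had 93.6 ± 6.25 CPM in DMSO, 30.9 ± 1.19 under acute osimertinib, 29.4 ± 10.7 in DTPs, 44.2 ± 9.72 after the short and 75 ± 20.9 after the long washout. The long washout thus stood at 76.3% of DMSO in PC9 and 80.1% in HCC2935, but at 36.6% in HCC827 and 26.9% in H1975.

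**Figure D1:**
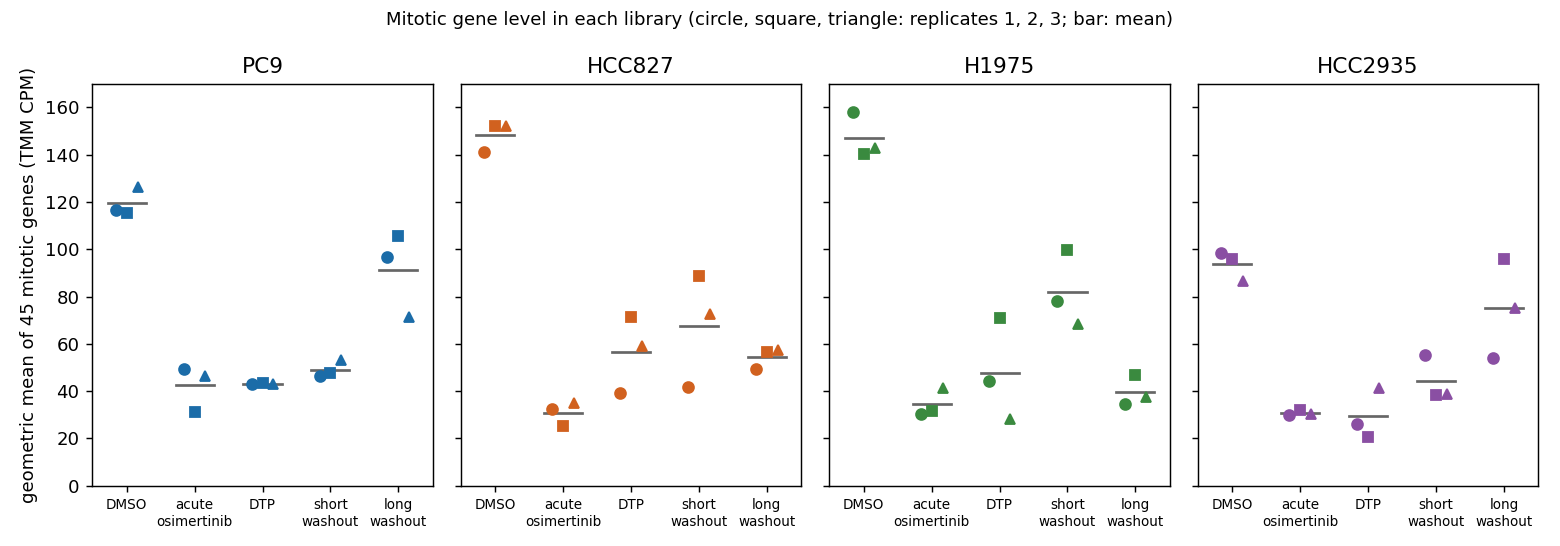
Geometric mean of the 45 genes in each of the 60 libraries (y axis, TMM-scaled CPM within each line) by arm (x axis), with a panel for each line, a marker shape for each replicate number and a bar at the mean of 3. Every acute and DTP library lies under the DMSO libraries of its line, and the long-washout libraries climb back toward DMSO in PC9 and HCC2935 but not in HCC827 and H1975.

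The chromosome proteins are described first, library by library in the order of replicates 1, 2 and 3. MKI67 (chr10:128096659-128126385, minus strand) encodes Ki-67, which coats mitotic chromosomes and is the usual proliferation marker. In PC9, MKI67 stood at 416, 425 and 477 CPM in DMSO, 208, 131 and 211 under acute osimertinib, 150.4, 158 and 175 in DTPs, 175, 191 and 193 after the short washout, and 371, 414 and 249.9 after the long washout. In HCC827, MKI67 stood at 443, 524 and 491 CPM in DMSO, 116, 70.2 and 109 under acute osimertinib, 116, 212 and 202 in DTPs, 126, 291 and 265 after the short washout, and 165, 186 and 173 after the long washout. Every library given osimertinib or a washout in these lines was below the DMSO libraries, and only in PC9 did the long-washout libraries lie above all DTP libraries. In H1975, MKI67 stood at 818, 676 and 727 CPM in DMSO, 122, 131 and 220.03 under acute osimertinib, 206, 354 and 121 in DTPs, 374, 459 and 325 after the short washout, and 152, 230.5 and 165 after the long washout. In HCC2935, MKI67 stood at 512, 498 and 472 CPM in DMSO, 124, 131 and 132 under acute osimertinib, 90.8, 63.8 and 142 in DTPs, 192, 144 and 163 after the short washout, and 217, 385 and 271 after the long washout. The H1975 long-washout libraries lay within the DTP range, while in HCC2935 the DTP, short-washout and long-washout groups did not overlap.

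TOP2A (chr17:40388516-40417950, minus strand) encodes topoisomerase II alpha, which untangles sister chromatids. In PC9, TOP2A stood at 385, 389 and 454 CPM in DMSO, 148, 100.3 and 144 under acute osimertinib, 139.9, 147 and 139.9 in DTPs, 134, 141 and 162 after the short washout, and 327, 368 and 246 after the long washout. In HCC827, TOP2A stood at 1189, 1100.1 and 1268 CPM in DMSO, 263, 179 and 239 under acute osimertinib, 265, 569.8 and 424 in DTPs, 283, 675 and 557 after the short washout, and 377, 421 and 476 after the long washout. Acute and DTP values overlapped in PC9, whereas every HCC827 DTP library was above the acute libraries. In H1975, TOP2A stood at 919.5, 797 and 799.8 CPM in DMSO, 159.8, 169 and 247 under acute osimertinib, 272, 461 and 179 in DTPs, 515, 624 and 475 after the short washout, and 237, 332 and 264 after the long washout. In HCC2935, TOP2A stood at 754, 711 and 608 CPM in DMSO, 168, 197 and 170.3 under acute osimertinib, 138, 109.6 and 236 in DTPs, 305, 195 and 194 after the short washout, and 334, 561 and 449 after the long washout. All 3 H1975 short-washout libraries exceeded the 3 DTP libraries, and the long-washout libraries were again within the DTP range.

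CDK1 (chr10:60778331-60794852, plus strand) is the kinase that drives entry into mitosis. In PC9, CDK1 stood at 155, 142 and 155 CPM in DMSO, 38.5, 24.97 and 38.7 under acute osimertinib, 55.1, 56.9 and 49.4 in DTPs, 66.7, 64.6 and 76.5 after the short washout, and 124, 129 and 92.2 after the long washout. In HCC827, CDK1 stood at 126, 105 and 121 CPM in DMSO, 20.4, 12.8 and 20.7 under acute osimertinib, 31.3, 54.5 and 38.6 in DTPs, 36.9, 63.3 and 52.00 after the short washout, and 37.3, 36.1 and 47.7 after the long washout. CDK1 was lowest under acute osimertinib in both lines, and the PC9 arms climbed without overlap from acute through DTP and short washout to long washout. In H1975, CDK1 stood at 176, 129 and 143 CPM in DMSO, 25.01, 25.5 and 35.98 under acute osimertinib, 38.1, 66.1 and 30.5 in DTPs, 80.97, 88.5 and 81.8 after the short washout, and 32.9, 48.8 and 32.7 after the long washout. In HCC2935, CDK1 stood at 98.4, 103 and 95.3 CPM in DMSO, 23.6, 21.6 and 27.2 under acute osimertinib, 25.2, 18.8 and 34.4 in DTPs, 44.5, 39.6 and 37.99 after the short washout, and 52.8, 86.2 and 65.5 after the long washout. Short-washout values were above all DTP values in PC9, H1975 and HCC2935, and only in H1975 did the long-washout libraries then lie below the short-washout ones.

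CCNB1 (chr5:69167010-69178245, plus strand) encodes cyclin B1, the partner of CDK1. In PC9, CCNB1 stood at 287, 269 and 305 CPM in DMSO, 135, 82.2 and 115 under acute osimertinib, 97.1, 97.7 and 93.02 in DTPs, 109, 109 and 111 after the short washout, and 220.01, 244 and 163 after the long washout. In HCC827, CCNB1 stood at 311, 378 and 366 CPM in DMSO, 88.9, 54.8 and 76.3 under acute osimertinib, 80.1, 154 and 130.5 in DTPs, 83.9, 194 and 134 after the short washout, and 92.8, 113 and 106 after the long washout. In neither line were the acute and DTP groups apart. In H1975, CCNB1 stood at 403, 356 and 354 CPM in DMSO, 75.8, 75.4 and 97.8 under acute osimertinib, 111, 168 and 62.3 in DTPs, 173, 246 and 145 after the short washout, and 81.8, 107 and 89.6 after the long washout. In HCC2935, CCNB1 stood at 131, 115 and 119.9 CPM in DMSO, 55.2, 54.8 and 48.6 under acute osimertinib, 41.1, 30.3 and 67.6 in DTPs, 85.96, 45.4 and 41.3 after the short washout, and 77.7, 156 and 118 after the long washout. HCC2935 was the line in which CCNB1 after the long washout overlapped the DMSO libraries.

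PLK1 (chr16:23677656-23690367, plus strand) encodes Polo-like kinase 1, which acts in mitotic entry, the spindle and cytokinesis. In PC9, PLK1 stood at 211, 179 and 211 CPM in DMSO, 79.9, 46.6 and 72.7 under acute osimertinib, 69.3, 63.3 and 65.3 in DTPs, 69.7, 76.7 and 80.9 after the short washout, and 141, 184 and 113 after the long washout. In HCC827, PLK1 stood at 134, 146 and 134 CPM in DMSO, 31.2, 22.6 and 34.2 under acute osimertinib, 37.05, 65.1 and 58.2 in DTPs, 38.5, 89.05 and 69.1 after the short washout, and 42.4, 56.1 and 51.8 after the long washout. The highest PC9 long-washout library reached into the DMSO range, and no HCC827 library did. In H1975, PLK1 stood at 272, 261 and 244 CPM in DMSO, 55.9, 63.1 and 69.5 under acute osimertinib, 74.6, 122 and 46.5 in DTPs, 132, 189.7 and 111 after the short washout, and 52.4, 72.4 and 53.4 after the long washout. In HCC2935, PLK1 stood at 107, 111 and 92.5 CPM in DMSO, 38.2, 43.2 and 42.4 under acute osimertinib, 21.6, 17.98 and 42.3 in DTPs, 53.6, 24.5 and 25.1 after the short washout, and 53.1, 112 and 82.5 after the long washout. In HCC2935 replicates 1 and 2 of the DTPs were below all acute libraries, replicate 3 was not, and the long-washout libraries overlapped DMSO.

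AURKA (chr20:56369389-56392337, minus strand) encodes Aurora A, the kinase of the centrosomes and spindle poles. In PC9, AURKA stood at 125, 116 and 132 CPM in DMSO, 47.8, 29.8 and 44.2 under acute osimertinib, 40.1, 37.6 and 42.4 in DTPs, 42.8, 41.9 and 49.1 after the short washout, and 91.4, 106 and 73.2 after the long washout. In HCC827, AURKA stood at 144, 159.9 and 153 CPM in DMSO, 33.6, 25.7 and 35.2 under acute osimertinib, 45.4, 99.9 and 78.6 in DTPs, 42.9, 127 and 93.2 after the short washout, and 61.2, 72.2 and 66.1 after the long washout. HCC827 DTPs lay above the acute libraries, with replicate 1 well below the other 2 replicates. In H1975, AURKA stood at 166, 135 and 148 CPM in DMSO, 27.7, 28.98 and 34.7 under acute osimertinib, 36.4, 58.9 and 21.5 in DTPs, 65.6, 89.1 and 52.4 after the short washout, and 24.5, 36.01 and 29.6 after the long washout. In HCC2935, AURKA stood at 73.8, 69.1 and 59.1 CPM in DMSO, 29.9, 29.1 and 27.98 under acute osimertinib, 31.7, 23.2 and 54.7 in DTPs, 68.8, 37.7 and 34.9 after the short washout, and 62.4, 107 and 83.6 after the long washout. HCC2935 was unlike the other lines in that 2 of 3 long-washout values were above every DMSO value.

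FOXM1 (chr12:2857681-2877155, minus strand) encodes the forkhead factor that activates G2/M genes. In PC9, FOXM1 stood at 455, 384 and 413 CPM in DMSO, 181, 122 and 154 under acute osimertinib, 184, 180.4 and 182 in DTPs, 210.3, 209 and 231 after the short washout, and 396, 436 and 287 after the long washout. In HCC827, FOXM1 stood at 299.99, 348 and 294 CPM in DMSO, 76.1, 88.4 and 112 under acute osimertinib, 83.6, 126 and 111 in DTPs, 83.8, 194 and 137 after the short washout, and 101, 119.7 and 112 after the long washout. Between acute osimertinib and DTPs the FOXM1 groups overlapped in both lines. In H1975, FOXM1 stood at 188, 184 and 176 CPM in DMSO, 69.6, 69.7 and 76.04 under acute osimertinib, 54.9, 82.2 and 29.5 in DTPs, 76.8, 119 and 72.5 after the short washout, and 36.7, 48.3 and 44.5 after the long washout. In HCC2935, FOXM1 stood at 226, 232 and 200.03 CPM in DMSO, 78.3, 84.3 and 85.5 under acute osimertinib, 69.1, 48.2 and 114 in DTPs, 149, 97.2 and 110.5 after the short washout, and 128, 247 and 215 after the long washout. The H1975 long-washout libraries were below all 3 acute libraries, which no other gene of these 12 showed.

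CDC20 (chr1:43358955-43363203, plus strand) encodes the activator of the anaphase-promoting complex. In PC9, CDC20 stood at 277, 246 and 269.6 CPM in DMSO, 107, 59.9 and 92.4 under acute osimertinib, 67.00, 69.98 and 66.99 in DTPs, 78.7, 82.9 and 87.8 after the short washout, and 167, 197 and 114 after the long washout. In HCC827, CDC20 stood at 384, 506 and 413 CPM in DMSO, 105, 74.3 and 112 under acute osimertinib, 128, 191 and 179 in DTPs, 122, 275 and 211 after the short washout, and 130.4, 176 and 165 after the long washout. The PC9 DTP and short-washout groups did not overlap, although they differed little. In H1975, CDC20 stood at 299, 349 and 286 CPM in DMSO, 73.5, 74.7 and 89.3 under acute osimertinib, 108, 160.4 and 58.6 in DTPs, 173, 252 and 145 after the short washout, and 81.1, 101 and 81.8 after the long washout. In HCC2935, CDC20 stood at 83.9, 89.4 and 70.9 CPM in DMSO, 33.6, 43.9 and 36.8 under acute osimertinib, 21.9, 12.7 and 38.5 in DTPs, 44.9, 30.4 and 28.6 after the short washout, and 43.4, 93.00 and 86.6 after the long washout. HCC2935 long-washout replicate 1 was within the acute range of that line, replicate 3 was within the DMSO range and replicate 2 above it.

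BIRC5 (chr17:78214186-78225636, plus strand) encodes survivin, a subunit of the chromosomal passenger complex. In PC9, BIRC5 stood at 161, 149 and 142 CPM in DMSO, 67.04, 42.1 and 55.3 under acute osimertinib, 47.9, 43.6 and 43.4 in DTPs, 51.8, 53.1 and 56.8 after the short washout, and 117, 131 and 76.9 after the long washout. In HCC827, BIRC5 stood at 79.9, 85.9 and 91.7 CPM in DMSO, 17.2, 15.9 and 21.6 under acute osimertinib, 24.4, 52.3 and 41.4 in DTPs, 25.5, 57.8 and 47.03 after the short washout, and 36.05, 44.4 and 41.2 after the long washout. HCC827 DTPs were above the acute libraries, and in PC9 the groups overlapped. In H1975, BIRC5 stood at 149.8, 116 and 131 CPM in DMSO, 20.8, 24.2 and 33.3 under acute osimertinib, 31.1, 46.7 and 16.3 in DTPs, 53.96, 63.6 and 43.7 after the short washout, and 20.2, 27.6 and 25.5 after the long washout. In HCC2935, BIRC5 stood at 95.7, 105 and 72.8 CPM in DMSO, 26.3, 27.5 and 22.2 under acute osimertinib, 23.7, 17.4 and 40.6 in DTPs, 57.3, 43.4 and 38.1 after the short washout, and 50.1, 91.4 and 75.1 after the long washout. The HCC2935 long washout again reached the DMSO range, and the H1975 long washout did not.

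CENPF (chr1:214603195-214664588, plus strand) encodes a large outer kinetochore protein. In PC9, CENPF stood at 243, 308 and 281 CPM in DMSO, 172, 118 and 181 under acute osimertinib, 129, 137 and 145 in DTPs, 155, 137 and 155 after the short washout, and 265, 293 and 213 after the long washout. In HCC827, CENPF stood at 396, 445 and 521 CPM in DMSO, 174, 100.4 and 145 under acute osimertinib, 124, 271 and 233 in DTPs, 185, 358 and 305 after the short washout, and 189, 239 and 218 after the long washout. CENPF was among the least lowered members in both lines. In H1975, CENPF stood at 497, 410.1 and 441 CPM in DMSO, 111, 111 and 185 under acute osimertinib, 167, 258 and 99.4 in DTPs, 237, 361 and 265 after the short washout, and 133, 164 and 139.6 after the long washout. In HCC2935, CENPF stood at 259, 257 and 217 CPM in DMSO, 129, 159.7 and 128 under acute osimertinib, 84.2, 67.6 and 164 in DTPs, 247, 102 and 125 after the short washout, and 221, 364 and 247 after the long washout. In HCC2935 short-washout replicate 1 lay within the DMSO range while replicates 2 and 3 did not.

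LMNB1 (chr5:126776623-126837020, plus strand) encodes lamin B1 of the nuclear lamina. In PC9, LMNB1 stood at 121, 116 and 151 CPM in DMSO, 53.1, 28.4 and 47.6 under acute osimertinib, 49.5, 53.8 and 50.9 in DTPs, 60.5, 60.7 and 70.1 after the short washout, and 123, 138 and 88.9 after the long washout. In HCC827, LMNB1 stood at 223, 226 and 211 CPM in DMSO, 49.5, 47.2 and 57.5 under acute osimertinib, 44.6, 71.05 and 71.04 in DTPs, 48.9, 87.9 and 81.5 after the short washout, and 76.7, 68.3 and 61.4 after the long washout. PC9 long-washout replicates 1 and 2 were within the DMSO range. In H1975, LMNB1 stood at 169, 139.9 and 164 CPM in DMSO, 34.7, 33.6 and 37.8 under acute osimertinib, 41.8, 68.98 and 36.2 in DTPs, 77.7, 89.4 and 71.7 after the short washout, and 40.2, 48.4 and 44.9 after the long washout. In HCC2935, LMNB1 stood at 122, 116 and 116 CPM in DMSO, 28.4, 28.1 and 33.4 under acute osimertinib, 27.4, 21.4 and 41.2 in DTPs, 61.7, 55.4 and 49.1 after the short washout, and 60.2, 89.96 and 74.7 after the long washout. Short-washout libraries were above all DTP libraries in PC9, H1975 and HCC2935, and in HCC2935 the long-washout libraries stayed under DMSO.

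KPNA2 (chr17:68035519-68046842, plus strand) encodes importin alpha 1, which also acts in spindle assembly. In PC9, KPNA2 stood at 515, 486 and 556 CPM in DMSO, 183, 117 and 179.6 under acute osimertinib, 166, 153 and 154 in DTPs, 185, 199 and 204 after the short washout, and 360.5, 406 and 289 after the long washout. In HCC827, KPNA2 stood at 463, 636 and 501 CPM in DMSO, 148, 113 and 158 under acute osimertinib, 179, 305 and 275 in DTPs, 205, 405 and 327 after the short washout, and 221, 222 and 243 after the long washout. HCC827 DTPs were above acute osimertinib without overlap. In H1975, KPNA2 stood at 562, 580.5 and 513 CPM in DMSO, 125, 119 and 143 under acute osimertinib, 197, 332 and 167 in DTPs, 380.2, 452 and 326 after the short washout, and 189.6, 239.7 and 202 after the long washout. In HCC2935, KPNA2 stood at 415, 412 and 374 CPM in DMSO, 161, 182 and 142 under acute osimertinib, 168, 154 and 241 in DTPs, 296, 186 and 187 after the short washout, and 288, 483 and 357 after the long washout. The H1975 DTP, short-washout and long-washout libraries were all above the acute libraries.

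**Figure D2:**
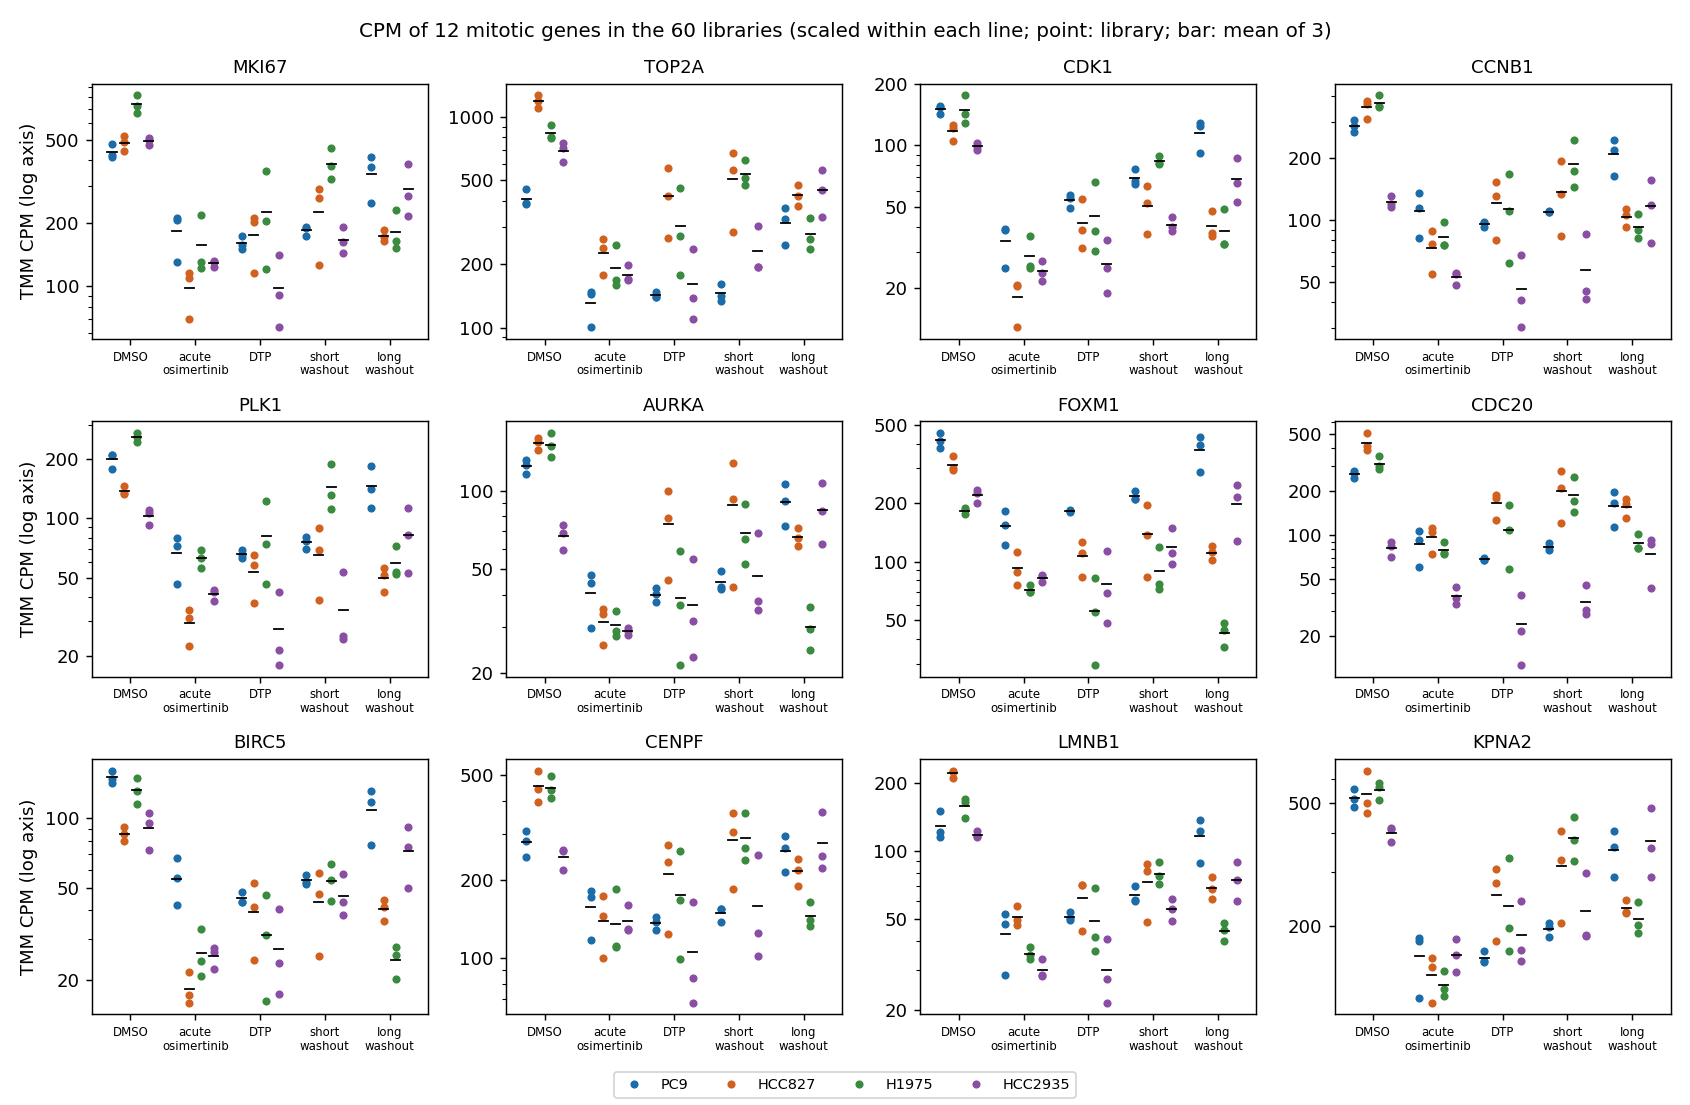
TMM-scaled CPM (y axis, log scale) of MKI67, TOP2A, CDK1, CCNB1, PLK1, AURKA, FOXM1, CDC20, BIRC5, CENPF, LMNB1 and KPNA2 in the 60 libraries, by line and arm, with a bar at the mean of 3. Values are scaled within each line, so they compare arms and not lines, and the drop under acute osimertinib and in DTPs is present in every panel.

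The first comparison asked what 24 h of osimertinib did to these genes. They fell in every line: 44 of 45 in PC9, where 31.7% of all genes tested were called lower, 45 of 45 in HCC827 (background 20.2%), 45 in H1975 (23.8%) and 45 in HCC2935 (22.2%). Calls throughout are an adjusted p under 0.05 from edgeR's quasi-likelihood test with Benjamini-Hochberg adjustment over all genes of the line. The median log2 fold change of the members was -1.57 in PC9, -2.26 in HCC827, -2.10 in H1975 and -1.65 in HCC2935, against medians of all genes between 0.0239 and 0.0989. Each call came with 3 acute libraries below the 3 DMSO libraries, as did 34.1% of all genes tested in PC9, 26.3% in HCC827, 25.6% in H1975 and 25.5% in HCC2935.

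CDK1 had the largest fall of the members in PC9 (log2 fold change -2.15 ± 0.16, SE, edgeR adjusted p = 1.01e-07), followed by the checkpoint gene MAD2L1 at -2.12 ± 0.25. The only member not called was CDC25C, the phosphatase that activates CDK1, at -0.29 ± 0.16 (edgeR adjusted p = 0.131), and CENPF was next at -0.82 ± 0.15. SPC25, a subunit of the NDC80 kinetochore complex, had the largest fall in each of the other lines, at -2.76 ± 0.35 in HCC827, -2.52 ± 0.38 in H1975 and -2.66 ± 0.25 in HCC2935. Next after it came the condensin subunit NCAPG at -2.72 ± 0.20 in HCC827, separase (ESPL1) at -2.51 ± 0.29 in H1975 and Aurora B (AURKB) at -2.30 ± 0.24 in HCC2935. The smallest falls were CENPF (-1.70 ± 0.28) and CCNB2 (-1.77 ± 0.27) in HCC827. In H1975 they were FOXM1 (-1.35 ± 0.27) and SMC2 (-1.41 ± 0.16), and in HCC2935 the cytokinesis kinesin KIF20A (-0.77 ± 0.30, edgeR adjusted p = 0.0493) and CENPF (-0.82 ± 0.32). In HCC2935 same-numbered DMSO and acute libraries deviated together weakly (correlations 0.168, 0.107 and 0.332), a pairing that the labels do not state. With the replicate number as a block 43 members were called.

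By role, the falls in HCC827 and H1975 had similar medians, from -2.02 for the nuclear envelope and import pair to -2.40 for the spindle checkpoint genes in HCC827, and from -1.80 for the cytokinesis pair to -2.35 for the kinetochore genes in H1975. HCC2935 spread more. Its 8 mitotic entry genes had a median of -1.27 and its 4 anaphase control genes -1.27, while the cytokinesis pair ANLN and ECT2 had -2.24 and the passenger pair AURKB and BIRC5 -2.08.

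**Figure D3:**
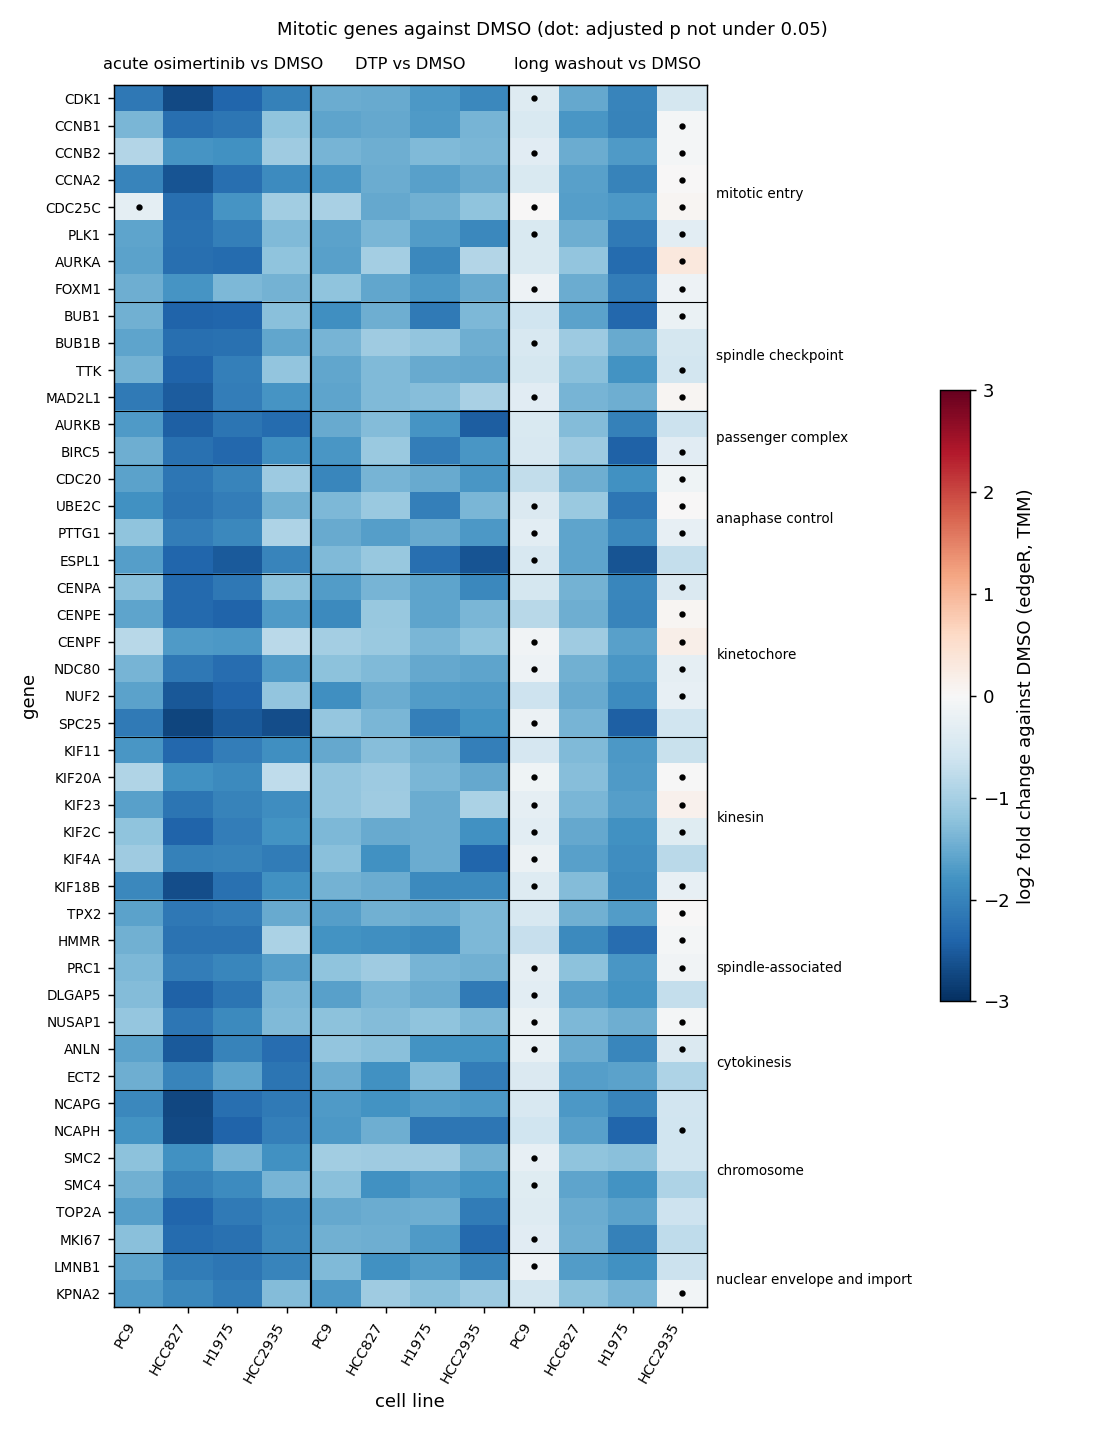
Log2 fold change of the 45 genes (rows, grouped by role) against DMSO for acute osimertinib, DTPs and long washout in each line (columns), with a dot where the edgeR adjusted p was not under 0.05. Acute and DTP columns are negative throughout and carry 1 dot, for CDC25C in PC9, and the dots gather in the long-washout columns of PC9 and HCC2935.

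After 21 days of drug the genes were still low. All 45 members were lower than DMSO in PC9 (background 33.5% of genes), HCC827 (20.4%), H1975 (25.7%) and HCC2935 (25.8%), with no overlap between the 3 DTP and the 3 DMSO libraries of any line for any member. Of all genes tested, 36%, 23.9%, 27.3% and 29% had 3 DTP libraries below the 3 DMSO libraries in these lines. The median log2 fold change was -1.5 in PC9, -1.38 in HCC827, -1.58 in H1975 and -1.71 in HCC2935. On the deposited TPM scale the all-gene median in PC9 was itself shifted, by 0.305 log2 units for DTPs against DMSO where the TMM scale gave 0.0558, and the members' median was then -1.25. The same shift was 0.188 in HCC2935, where the members' median became -1.56.

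CDC20 (-1.96 ± 0.20) and CENPE (-1.91 ± 0.15) had the largest falls in PC9 DTPs, and CDC25C (-0.97 ± 0.16) and CENPF (-1.02 ± 0.15) the smallest. In HCC827 the hyaluronan receptor and spindle protein HMMR (-1.85 ± 0.25) and the RhoA exchange factor ECT2 (-1.82 ± 0.17) fell most, and AURKA (-1.03 ± 0.31) and BUB1B (-1.06 ± 0.28) least. Separase had the largest fall in both H1975 (-2.27 ± 0.29) and HCC2935 (-2.60 ± 0.20), followed by the condensin subunit NCAPH (-2.16 ± 0.30) in H1975 and by AURKB (-2.46 ± 0.24) in HCC2935. The condensin subunit SMC2 (-1.06 ± 0.16) and BUB1B (-1.19 ± 0.24) fell least in H1975, as did AURKA (-0.89 ± 0.28) and the central spindle kinesin KIF23 (-0.94 ± 0.19) in HCC2935.

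DTPs were then set against acute osimertinib. Both groups were harvested under drug, and their libraries are the same as in the comparisons with DMSO. HCC827 was the line with many calls: 33 of 45 members were higher in DTPs and 0 lower, where 29.4% of all genes were called in either direction, with a median of 0.93. In H1975 5 members were higher and 0 lower (background 37.2%), in PC9 2 were higher and 2 lower (33.9%), and in HCC2935 4 were higher and 3 lower (44.7%), all below the share of genes called in those lines. The medians were 0.49 in H1975, -0.02 in PC9 and -0.10 in HCC2935. On the TPM scale the PC9 median was 0.281, the same as the all-gene shift on that scale. The HCC827 count was 19 without acute replicate 2 and 19 without DTP replicate 2.

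SPC25 was higher in DTPs in 3 lines, by 0.96 ± 0.22 in PC9, 1.40 ± 0.35 in HCC827 and 0.88 ± 0.25 in HCC2935. MAD2L1 was also called higher in 3 lines (7.16% of the genes tested in all 4 lines were called higher in 3 or more), and 12 members, among them CDK1, CCNA2, NDC80, UBE2C, PRC1 and NCAPG, had a positive log2 fold change in all 4, as did 14.9% of those genes. CDK1 rose by 0.66 ± 0.16 in PC9 and 1.21 ± 0.24 in HCC827. The cytokinesis scaffold ANLN (1.26 ± 0.27) was the second highest in HCC827, and ECT2 (0.15 ± 0.16) and FOXM1 (0.21 ± 0.24) the lowest, neither called. In H1975 BUB1B (1.05 ± 0.24) and KPNA2 (0.85 ± 0.20) rose most, together with MAD2L1, NDC80 and NUSAP1, while FOXM1 was at -0.37 ± 0.27 and UBE2C at 0.01 ± 0.26. In PC9 CDC25C (-0.68 ± 0.16) and CCNB2 (-0.50 ± 0.14) fell. In HCC2935 KIF23 rose by 0.93 ± 0.19, with MAD2L1, SPC25 and SMC2, whereas ESPL1, CENPA and DLGAP5 fell. PTTG1 (securin, the inhibitor of separase, -0.78 ± 0.33) and KIF20A (-0.77 ± 0.31) were lowest there without passing the test. Counts in PC9, H1975 and HCC2935 moved with the test and with single libraries, for example to 33 in H1975 without DTP replicate 3, to 15 in PC9 without acute replicate 2 and to 18 in HCC2935 without DTP replicate 3.

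The short washout asked how soon the genes moved once the drug was removed. After 24 h few members had passed the test. In HCC2935 4 of 45 were higher than in DTPs (background 2.32%): NCAPG (1.12 ± 0.20, edgeR adjusted p = 0.00654), LMNB1 (0.89 ± 0.19), ANLN and SMC2. The DTP replicate that stood high in HCC2935 weighed on that count, which was 22 without DTP replicate 3 and 1 without DTP replicate 2 or short-washout replicates 1 or 2. By edgeR, 0 members were called in PC9 (background 3.87% called higher), HCC827 (0%) and H1975 (0.0585%). At an unadjusted p under 0.05 the counts were 3, 1 and 43, and DESeq2 called 0, 0 and 16 and limma 0 in each. The median log2 fold change was 0.19 in PC9, 0.25 in HCC827, 0.76 in H1975 and 0.58 in HCC2935, positive for 43 members in PC9 and for 45 in each other line.

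The DTP replicates of H1975 lay far apart from each other. Replicate by replicate, the geometric mean of the members went from 44.3 CPM in DTPs to 78.1 after the short washout, from 70.8 to 99.5, and from 28.3 to 68.4. All 45 members were higher after the short washout in each of the 3 same-numbered pairs, where 23.8% of all genes were. In HCC827 the pairs went from 39.2 to 42.0, from 71.5 to 88.6 and from 58.9 to 72.7 CPM, and 27 members were higher in all 3 pairs, against 14.3% of all genes. In both lines DTP and short-washout libraries of the same number deviated together. The labels state no pairing, so the counts by pair and the block fits rest on a pairing read from these data. With the replicate number as a block, edgeR called 1 member in H1975 when all 15 libraries of the line were fitted, and 45 when only the 6 libraries compared were fitted, a setting added after the data were seen. In HCC827 both fits called 0. Without DTP replicate 2, the high one, the unblocked test in H1975 called 42 members. The condensin subunit NCAPH (1.12 ± 0.30) and the kinesin KIF18B (1.15 ± 0.24, edgeR adjusted p = 0.0656) had the largest values in H1975, and ECT2 (0.48 ± 0.23) and SMC2 (0.50 ± 0.16) the smallest.

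In PC9 the extremes were ANLN (0.41 ± 0.18) and MAD2L1 (0.38 ± 0.24) above, and CDC25C (-0.18 ± 0.17) and KIF20A (-0.14 ± 0.17) below. In HCC827 they were ESPL1 (0.54 ± 0.27) and NCAPG (0.51 ± 0.19), and CENPE (0.04 ± 0.27) and BUB1B (0.06 ± 0.28). In HCC2935 KIF18B (1.10 ± 0.31) followed NCAPG without passing the test, and CENPA (0.22 ± 0.25) and KPNA2 (0.25 ± 0.21) were lowest. Tested across the 4 lines, the change from DTPs to the short washout differed for 0 of 45 members by edgeR (background 0.0121%), with 2 at an unadjusted p under 0.05 and 0 by DESeq2 and limma.

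The long washout separated the lines. Against DTPs, all 45 members were higher in PC9 (background 20.4%, median 1.09) and all 45 in HCC2935 (6.82%, median 1.36). In HCC827 and H1975, edgeR called 0 of 45 members in either direction, with 0 at an unadjusted p under 0.05. DESeq2 and limma also called 0. Of all genes tested, 0 were called in HCC827 and 1 of 15379 in H1975, which was lower. The medians of the members were -0.04 and -0.30. DLGAP5 (1.29 ± 0.18) and cyclin A2, CCNA2 (1.28 ± 0.17), rose most in PC9 and SMC2 (0.80 ± 0.14) and ESPL1 (0.84 ± 0.19) least. ESPL1 (1.88 ± 0.19, edgeR adjusted p = 0.000125) and AURKB (1.83 ± 0.24) rose most in HCC2935 and SMC2 (0.82 ± 0.13) and SMC4 (0.86 ± 0.17) least. In HCC827 the values ran from ESPL1 (-0.44 ± 0.27) and CENPE (-0.32 ± 0.27) to KIF18B (0.20 ± 0.23) and SMC4 (0.23 ± 0.17). In H1975 they ran from PLK1 (-0.45 ± 0.27) and PTTG1 (-0.42 ± 0.31) to UBE2C (-0.11 ± 0.26) and KIF18B (-0.00 ± 0.24).

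Set against the short washout, the long washout was higher for 43 of 45 members in PC9 (background 8.33% in either direction, median 0.89), with ANLN (0.54 ± 0.18, edgeR adjusted p = 0.0726) and KIF23 the members not called. KIF20A (1.199 ± 0.17) and CDC25C (1.14 ± 0.17) rose most and SMC2 (0.52 ± 0.14) was lowest. With only the 6 libraries compared 0 were called, and without short-washout replicate 1, long-washout replicate 1 or long-washout replicate 2 the counts were 22, 28 and 24. In HCC2935 3 members were higher (background 1.72%, median 0.76): CENPA (1.26 ± 0.25), ESPL1 and KIF2C. PLK1 (1.26 ± 0.33, edgeR adjusted p = 0.0607) had the highest value there, and NCAPG (0.02 ± 0.20) and SMC2 (0.21 ± 0.13) the lowest. Without long-washout replicate 1, the lowest of its group for 45 members, 25 members were called.

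In H1975 the direction was the opposite: 26 of 45 members were lower after the long than after the short washout and 0 higher (background 3.52%, median -1.04), and all 45 had 3 long-washout libraries below the 3 short-washout libraries, as did 16.8% of all genes tested. SPC25 (-1.504 ± 0.37) and NCAPH (-1.34 ± 0.30) fell most, and SMC2 (-0.70 ± 0.16) and SMC4 (-0.73 ± 0.17) least. Leaving out short-washout replicate 1 or 2, or long-washout replicate 1 or 3, took the count to 0, and fits on the 6 libraries, on 60 libraries and by DESeq2 gave 45, 44 and 45. In HCC827 0 members were called (background 0%), with 4 at an unadjusted p under 0.05 and 0 by DESeq2 and limma. The median was -0.31, and values ran from ESPL1 (-0.98 ± 0.27) and KIF23 (-0.65 ± 0.25) to ECT2 (-0.07 ± 0.16) and SMC4 (0.01 ± 0.17).

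**Figure D4:**
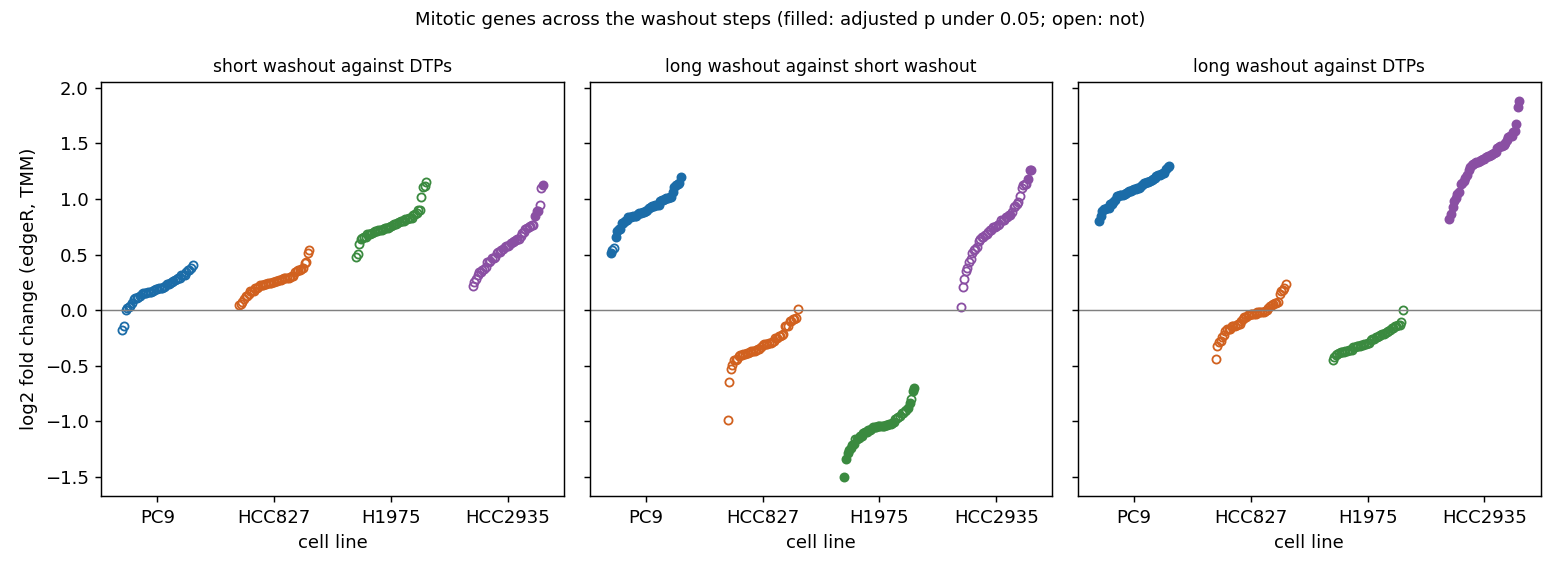
Log2 fold changes of the 45 genes for short washout against DTPs, long against short washout and long washout against DTPs in each line, filled where the edgeR adjusted p was under 0.05. The points for long washout against DTPs lie above 0 and are filled in PC9 and HCC2935, and lie around or below 0 and are open in HCC827 and H1975.

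Against DMSO, the long-washout level of the members was still lower for all 45 in HCC827 (background 20%, median -1.47) and all 45 in H1975 (26%, median -1.86). In PC9 19 of 45 were lower (21.5%, median -0.39) and in HCC2935 15 of 45 (20.8%, median -0.28), with 0 higher in either line. The PC9 count was 7 without DMSO replicate 3, 7 without long-washout replicate 3, 11 without DMSO replicate 1 and 30 without long-washout replicate 2. The HCC2935 count was 5 without long-washout replicate 1, 9 without long-washout replicate 3 and 8 without DMSO replicate 1 or 2.

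HMMR (-1.91 ± 0.25) and CCNB1 (-1.76 ± 0.28) were lowest in HCC827 and CENPF (-1.08 ± 0.28) and BUB1B (-1.08 ± 0.28) highest. ESPL1 (-2.59 ± 0.29) and SPC25 (-2.44 ± 0.38) were lowest in H1975 and SMC2 (-1.26 ± 0.16) and KPNA2 (-1.39 ± 0.20) highest. In PC9 CENPE (-0.83 ± 0.14, edgeR adjusted p = 0.000431) and CDC20 (-0.73 ± 0.19) remained lowest, and CDC25C (0.00 ± 0.16) and CENPF (-0.11 ± 0.15) had the values nearest 0, neither called. In HCC2935 ECT2 (-0.94 ± 0.17) and SMC4 (-0.93 ± 0.17) were lowest, and AURKA (0.33 ± 0.28, edgeR adjusted p = 0.371) and CENPF (0.18 ± 0.31) had the highest values. By role, the chromosome genes had a median of -0.62 and the mitotic entry genes of -0.06 in HCC2935, and of -0.38 and -0.42 in PC9. The difference between the roles was not tested. AURKB, KIF11, ECT2, NCAPG and TOP2A were called lower than DMSO in all 4 lines, which is 5 of 45 members against 3.89% of the genes tested in all 4.

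Whether the lines differed was tested in a fit of all 60 libraries. For acute osimertinib the change from DMSO differed among the 4 lines for 8 of 45 members, against 41.4% of all genes: CDC25C, BUB1, TTK, CENPA, NUF2, KIF2C, HMMR and SMC2. CDC25C differed most clearly (edgeR adjusted p = 0.000402). Its fall in PC9 was smaller than the mean of the other 3 lines by 1.40 ± 0.32 and its fall in HCC827 larger, at -1.20 ± 0.32. PC9 against the mean of the others gave 5 members (background 28%), all with a smaller fall in PC9: CDC25C, KIF4A (0.98 ± 0.30), MKI67 (0.90 ± 0.32), KIF2C (0.88 ± 0.26) and SMC2 (0.46 ± 0.17). HCC827 gave 1 member (14.4%), HCC2935 gave 2 (18.7%), HMMR (0.98 ± 0.33) and NUF2 (0.96 ± 0.34), both with a smaller fall, and H1975 gave 0 (10.2%), with 2 at an unadjusted p under 0.05 and 0 by DESeq2 and limma. These shares were all under those of the genes tested. With a library left out the count among the lines ran from 5 (without PC9 acute replicate 1 or 3 or HCC827 acute replicate 2) to 15 (without H1975 acute replicate 3), and the PC9 count from 1 (without PC9 acute replicate 1) to 8 (without PC9 acute replicate 2). The HCC2935 count was 0 without HCC2935 DMSO replicate 3 or without HCC2935 acute replicate 2 or 3.

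For DTPs against DMSO 4 members differed among the lines (background 63.9%): ESPL1 (edgeR adjusted p = 0.00119), AURKB, KIF4A and ECT2. ESPL1 fell more in HCC2935 than the mean of the other lines (-1.03 ± 0.31) and less in HCC827 (0.90 ± 0.30). AURKB (-0.93 ± 0.29) and KIF4A (-0.86 ± 0.30) also fell more in HCC2935, the 3 calls of that line (background 31.8%), and ESPL1 was the 1 call of HCC827 (28.4%). PC9 had 0 calls (41.1%), with 5 at an unadjusted p under 0.05, 2 by DESeq2 and 4 by limma, and H1975 had 0 (29.1%), with 3, 0 and 3. The count among the lines was 9 without H1975 DTP replicate 2, 8 without HCC2935 DTP replicate 3 and 1 without HCC2935 DMSO replicate 2 or DTP replicate 1. It was 2 without PC9 DMSO replicate 2 or 3, PC9 DTP replicate 1 or 2, HCC2935 DMSO replicate 1 or 3 or HCC2935 DTP replicate 2. The HCC2935 count ran from 1 (without HCC2935 DTP replicate 2) to 9 (without HCC2935 DTP replicate 3).

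For the long washout against DMSO all 45 members differed among the lines (background 57.1%, largest edgeR adjusted p = 0.0342). PC9 was above the mean of the others for 24 members (background 24.1%, median difference 0.82) and HCC2935 for 32 (32.3%, median 0.95). HCC827 was below it for 15 (25.1%, median -0.60) and H1975 for 43 (29.5%, median -1.14). AURKA had the largest difference in both H1975 (-1.85 ± 0.34) and HCC2935 (1.65 ± 0.34), followed by BIRC5 in H1975 (-1.78 ± 0.32) and HMMR in HCC2935 (1.58 ± 0.33). Since each line had its own washout time, these differences cannot be told apart from a difference in days without drug. The counts were 15 without PC9 long-washout replicate 2 in PC9 and 15 without HCC2935 long-washout replicate 2 in HCC2935. The HCC827 count was 2 without HCC827 long-washout replicate 1, 7 without replicate 2, between 5 and 9 without any HCC827 DMSO replicate, 8 without H1975 long-washout replicate 2 and 9 without HCC2935 long-washout replicate 2.

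Other genes of the pathway were counted in the same way. Of 65 further mitotic genes, 63 fell under acute osimertinib in PC9 and 62 in each other line. In DTPs, 62, 57, 62 and 62 were lower than in DMSO in PC9, HCC827, H1975 and HCC2935. In the same order of lines, 31.7%, 20.2%, 23.8% and 22.2% of all genes tested were lower under acute osimertinib. For DTPs those shares were 33.5%, 20.4%, 25.7% and 25.8%. The centromere gene CENPW was the lowest of the 65 in PC9 DTPs (-1.98) and WEE1, the kinase that holds CDK1 inactive, the highest (0.52). After the long washout 60 of 65 were higher than in DTPs in PC9 and 60 in HCC2935, and 0 in HCC827 and H1975 by edgeR. The shares of all genes tested were 20.4% in PC9, 6.82% in HCC2935 and 0% in HCC827 and H1975. The 17 subunits and partners of the anaphase-promoting complex moved less, with medians for DTPs against DMSO between -0.39 and -0.02. Of the 17, 12, 9, 9 and 6 were lower, against 33.5%, 20.4%, 25.7% and 25.8% of all genes tested. UBE2S, the chain-extending enzyme of the complex, was the exception at -1.49 in PC9, and ANAPC2 was at 0.36. FZR1, which activates the complex in G1, was at -0.25 in PC9. Cohesin and its regulators (9 genes) had medians between -0.43 and -0.28, from SMC1A (-1.03) to NIPBL (0.29) in PC9.

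Of the 12 genes of the MuvB, B-MYB and DREAM list, 9, 6, 7 and 7 were lower in DTPs than in DMSO. The shares of all genes tested were 33.5%, 20.4%, 25.7% and 25.8%. MYBL2, which encodes B-MYB, fell by 2.40 on the log2 scale under acute osimertinib in PC9 and by 1.26 in DTPs, and was higher in DTPs than under acute osimertinib in all 4 lines (1.14 in PC9, 1.46 in HCC827, 0.94 in H1975 and 1.37 in HCC2935). RBL2, which encodes p130 of the DREAM complex, was the highest of that list in PC9 DTPs (0.92). Of 34 DNA replication genes, all 34 fell under acute osimertinib in each line and 26, 28, 20 and 27 were higher in DTPs than under acute osimertinib, while among the 45 mitotic members those counts were 2, 33, 5 and 4. Of all genes tested, 16.1%, 18%, 18.3% and 22.8% were called higher in that comparison. Under acute osimertinib against DMSO, 31.7%, 20.2%, 23.8% and 22.2% were called lower. The difference between the lists was not tested. As a check of the drug, the ERK output gene DUSP6 stood at -5.98, -3.40, -3.53 and -5.48 under acute osimertinib against DMSO in PC9, HCC827, H1975 and HCC2935. In DTPs DUSP6 was at -4.80, -0.34, -2.90 and -3.70. Summed over the 10 ERK output genes, the DMSO libraries of PC9 held 337 to 398 TPM and the acute ones 20.7 to 58.5. These ranges were 408 to 706 and 79.4 to 248 in HCC827, and 394 to 410 and 44.9 to 75.8 in H1975. HCC2935 had 423 to 508 and 37 to 48.7. The DTP libraries held 81.6 to 183, 182 to 313, 68.4 to 104 and 136 to 233 TPM in the same order of lines. Of 10 ERK output genes 7, 3, 8 and 7 were still lower than DMSO after the long washout. The shares of all genes tested were 21.5%, 20%, 26% and 20.8%.

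The members varied together. The correlation of each member with the mean of the others, on log2 TPM over the 60 libraries, ran from 0.728 for FOXM1 to 0.969, with a median of 0.907, and after subtracting group means from 0.642 for ESPL1 to 0.984 for TPX2, with a median of 0.919. UBE2C, KIF18B, LMNB1 and MKI67 had the highest of the first kind. The libraries share depth, line and treatment, so these values describe the set and carry no test. Of the 45 genes, 21 overlap a gene on the other strand in GENCODE release 29, 9 overlap one on the same strand and 12 have a named pseudogene (4 for UBE2C, 3 for KPNA2, 2 each for AURKA and NCAPG). Strand use in counting is not given in the sources used here, so reads of such genes and of overlapping or near-identical ones cannot be told apart with certainty.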

How the data were processed

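RNA was sequenced from 60 libraries of 4 cell lines (mRNA TruSeq, HiSeq4000, paired reads of 150 bases). The authors deposited estimated counts and log2 TPM values (with 0.01 added) for 19712 genes. The submitters' processing notes name HISAT2 2.1.0, Salmon 0.8.2 and hg38, without roles. Estimated counts of this kind are not whole and were rounded. Libraries held 17.7 to 49.1 M counts, and TPM totals were 0.806 to 0.891 M. 0 columns lacked a sample, and no group held identical libraries.

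Groups were taken from the labels. In each line the 15 libraries were fitted with edgeR 4.0.16 (R 4.3.3), using TMM factors, filterByExpr and the quasi-likelihood test, 2-sided, with Benjamini-Hochberg adjustment over all genes tested (14665 to 15379 a line). All 45 members passed the filter in each line. Differences among lines came from a fit of all 60 libraries (16583 genes). Standard errors are the log2 fold change divided by the square root of F. The tests were checked on simulated data with 200 changed genes. Alternatives were RLE factors, no filter, DESeq2 1.42.0, limma 3.58.1 on log2 TPM, the replicate number as a block, fits of 6 or 60 libraries, and leaving out each library. Figures were drawn with matplotlib 3.10.9. The study's methods give no model for these data. The labels call the replicates biological but do not say how they were raised, so p-values measure the spread between these samples.

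Correlations of same-numbered libraries' deviations from group means (log2 of CPM plus 1) were all over 0.1 for DTPs and short washout in HCC827 (0.677, 0.385 and 0.494) and H1975 (0.231, 0.562 and 0.498) and for DMSO and acute osimertinib in HCC2935 (0.168, 0.107 and 0.332). The pairing comes from these data and not from the labels, and no other pair of arms met it.

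The members and the gene lists were chosen with earlier results of these data known. Per-library values are given for 12 members, and in each comparison the 2 highest and 2 lowest members were named. Promoter windows are from RefSeq (GRCh38.p14) and positions and overlaps from GENCODE release 29.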

Additional observations from a re-analysis of the deposited data

Results flagged for a closer look

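In several comparisons the 4 lines differed by a test of the difference itself, and these results are listed as values only. For acute osimertinib against DMSO, 8 of 45 members differed among the lines (background 41.4% of all genes tested), 5 in PC9 (28%), 1 in HCC827 (14.4%) and 2 in HCC2935 (18.7%) against the mean of the other 3 lines. For DTPs against DMSO the counts were 4 among the lines (63.9%), 1 in HCC827 (28.4%) and 3 in HCC2935 (31.8%). In both comparisons each of these shares of the members was under that of all genes. For the long washout against DMSO they were 45 among the lines (57.1%), 24 in PC9 (24.1%) and 32 in HCC2935 (32.3%), above the mean of the others, and 15 in HCC827 (25.1%) and 43 in H1975 (29.5%), below it. The long washout lasted a different number of days in each line, so line and time cannot be told apart in this arm. With 3 samples a group, no group was large enough to be searched for a single outlying sample.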

How the results depend on the processing

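Of 48 counts of called members, 28 within a line and 20 between lines, RLE factors moved 0 by over 1.5 times, no filter 1, the replicate block 1, limma 7 and DESeq2 9. Of the 28 within a line, the 6-library fit moved 5, the 60-library fit 5 and the block with 6 libraries 9 (added after the data were seen). No called value of the 12 members followed singly changed direction, but 184 of 2590 no longer passed the test, 117 of them among 1110 with a library left out and 31 among 185 with the block and 6 libraries. Within a line, the counts for acute osimertinib and DTPs against DMSO, and for the long washout against DMSO in HCC827 and H1975, stayed within 1.5 times under every setting. Where same-numbered libraries did not deviate together, the block is a check only. Where they did, it changed no other count beside the values given in the report. The causes of the moves were not tested, beyond the fewer libraries in some fits.

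For DTPs against acute osimertinib, PC9 (4) gave 17 by limma, 8 by DESeq2, 2 with 60 libraries, 8 with 6 and 9 with the block and 6, and H1975 (5) gave 2, 14, 13, 2 and 2. For the short washout against DTPs, PC9 (0) gave 13 with 6 libraries and 5 with the block and 6. H1975 (0) gave 1 with the replicate block, 16 by DESeq2, 2 with 60 libraries and 45 with the block and 6. HCC2935 (4) gave 7 by limma and 16 by DESeq2. For the long against the short washout, PC9 (43) gave 0 with 6 libraries, with or without the block, H1975 (26) gave 45 by DESeq2, 44 with 60 libraries and 45 with 6, with or without the block, and HCC2935 (3) gave 5 with no filter, 18 by DESeq2 and 0 with the block and 6. For the long washout against DTPs, HCC2935 (45) gave 0 with the block and 6. For the long washout against DMSO, PC9 (19) gave 6 by limma, 4 with 60 libraries and 6 with the block and 6, and HCC2935 (15) gave 9 by limma. Among the line differences, HCC827 under acute osimertinib (1) gave 2 by DESeq2. For DTPs, PC9 (0) gave 4 by limma and 2 by DESeq2, H1975 (0) gave 3 by limma and HCC2935 (3) gave 5 by DESeq2.

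With a library left out, the counts ran from 4 to 15 (DTPs against acute osimertinib, PC9, 15 without acute replicate 2 and 7 without acute replicate 3), 19 to 37 (HCC827), 2 to 33 (H1975, 2 without acute replicate 1 or 2, 8 without acute replicate 3, 3 without DTP replicate 2) and 3 to 18 (HCC2935, 4 without acute replicate 1 and 3 without acute replicate 3). For the short washout against DTPs they ran from 0 to 42 in H1975 and 1 to 22 in HCC2935 (2 without DTP replicate 1). For the long against the short washout they ran from 22 to 45 in PC9, 0 to 28 in H1975 (15 without long-washout replicate 2) and 1 to 25 in HCC2935 (9 without short-washout replicate 1, and 1 without short-washout replicate 2 or 3 or long-washout replicate 2 or 3). For the long washout against DMSO they ran from 7 to 30 in PC9 and 5 to 18 in HCC2935. The line differences ran, for acute osimertinib, from 5 to 15 among the lines (5 without PC9 acute replicate 1 or 3 or HCC827 acute replicate 2, 15 without H1975 acute replicate 3), 1 to 8 in PC9 (1 without PC9 acute replicate 1, 8 without acute replicate 2, 3 without acute replicate 3 or DMSO replicate 1 or 2), 1 to 2 in HCC827 (2 without HCC827 acute replicate 3) and 0 to 2 in HCC2935 (0 without HCC2935 DMSO replicate 3 or acute replicate 2 or 3). For DTPs they ran from 1 to 9 among the lines (9 without H1975 DTP replicate 2, 8 without HCC2935 DTP replicate 3, 1 without HCC2935 DMSO replicate 2 or DTP replicate 1), 0 to 3 in PC9 (3 without H1975 DTP replicate 2), 0 to 3 in HCC827 (0 without HCC827 DMSO replicate 3, 3 without HCC827 DTP replicate 1 or H1975 DTP replicate 2), 0 to 6 in H1975 (6 without H1975 DTP replicate 2) and 1 to 9 in HCC2935 (9 without HCC2935 DTP replicate 3, 1 without DTP replicate 2, 7 without H1975 DTP replicate 3 and 5 without HCC827 DTP replicate 1). For the long washout they ran from 15 to 33 in PC9, 2 to 18 in HCC827 and 15 to 35 in HCC2935.

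With 3 libraries a group, and replicates of several drug-treated groups spread across nearly all members, counts near the threshold are the least certain. HCC827 and HCC2935 were sequenced less deeply than PC9 and H1975, but no member had a count near 0.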

Other observations

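In HCC2935 the steps after removal of the drug can be set side by side for replication genes and mitotic members. Of 34 replication genes, 31 were higher after the short washout than in DTPs and 0 higher after the long than after the short washout, while of the 45 mitotic members 4 and 3 were. Of all genes tested in HCC2935, 2.32% and 0.923% were higher in these steps. The median log2 fold changes from DTPs to the short washout were 1.07 and 0.58, and from the short to the long washout -0.10 and 0.76. Leaving out HCC2935 DTP replicate 3 gave 22 mitotic calls for the first step, and leaving out long-washout replicate 1 gave 25 for the second. Leaving out other libraries gave as few as 1 in either step. By DESeq2 the mitotic counts were 16 and 18, and by limma 7 and 2. The difference between the lists was not tested.

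CDC25C was the only member not called under acute osimertinib in PC9. It was at -0.29 ± 0.16 under acute osimertinib against DMSO and at -0.97 ± 0.16 in DTPs, and it was lower in DTPs than under acute osimertinib (-0.68 ± 0.16, edgeR adjusted p = 0.00543), and after the long washout it did not pass the test against DMSO (edgeR adjusted p = 0.999). ESPL1, which encodes separase, had the lowest correlation with the other members within groups (0.642) and the smallest adjusted p for a difference among the lines in DTPs (0.00119 by edgeR).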
